A study of Mus musculus with 27 samples.

Results

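The genes described here are 47 factors that work in the nucleolus on ribosomal RNA (rRNA), chosen by name from a fixed list, out of 54532 genes counted in mouse splenic B cells. The list was made with earlier results of these data known, so that its counts beside those of all genes are a description and no independent test. All 47 names were found in the count tables of both experiments, each as 1 gene, and all 47 passed the filter on low counts. The cells were B cells of wild-type (WT) C57BL6 mice, purified from spleen by negative selection and cultured for 3 h, and messenger RNA was sequenced. The first experiment held 5 groups of 4 libraries: cells without stimulus or inhibitor, with DMSO as vehicle (NS), cells given lipopolysaccharide and vehicle (LPS), cells given interleukin-4, an antibody to CD40 and vehicle (IL4CD40), and each stimulus with 1 µM disulfiram (LPS_DSF, IL4CD40_DSF). The second experiment held 7 libraries, 1 per condition: the same 5 conditions and each stimulus with 1 µM ibrutinib (LPS_IBRU, IL4CD40_IBRU). The authors' figure legends describe cells with disulfiram or ibrutinib as pre-treated, and the time as 3 h after stimulation. No unstimulated culture received an inhibitor, and neither the stimulus doses nor the age of the mice were given in the labels. LPS is a bacterial ligand of a Toll-like receptor, whereas IL-4 with CD40 ligation stands in for T cell help. Disulfiram is a drug for alcohol dependence that inhibits aldehyde dehydrogenase, and ibrutinib inhibits Bruton's tyrosine kinase.

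A ribosome is built in the nucleolus, where RNA polymerase I transcribes a long rRNA precursor. Small nucleolar ribonucleoproteins (snoRNPs) mark sites of this precursor for methylation (box C/D) or pseudouridylation (box H/ACA), the small-subunit processome folds and cuts the part that becomes the small subunit, and separate sets of factors process the large subunit. Lymphocytes leaving rest enlarge their nucleoli and raise the output of ribosomes before they divide, and many genes of these factors are textbook targets of the transcription factor MYC.

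Total counts were 17804851 to 23632992 a library in experiment 1 and 16049295 to 24619776 in experiment 2. The 47 genes together took 0.802%, 0.792%, 0.529% and 0.535% of all counts in NS libraries 1 to 4, so libraries 1 and 2 stood apart from libraries 3 and 4. For 44 of the 47 genes both NS libraries 1 and 2 were above both NS libraries 3 and 4, with a median ratio of 1.49 and a range from 0.93 for Emg1 to 2.02 for Rrp1b. Of the 12714 genes with a mean of at least 1 CPM (counts scaled to equal library size) in NS, 38.5% had this order, with a median ratio of 0.988. The IL4CD40 libraries were also split in this way, with 2.00%, 2.04%, 1.82% and 1.72% of all counts, and for 45 of the 47 genes both IL4CD40 libraries 1 and 2 were above both 3 and 4, by a median ratio of 1.14, where 30.2% of 12347 genes had this order. Between libraries of different pairs chi-square per gene was 15.6 to 27.2 in IL4CD40 and 84.8 to 90.7 in NS, against 2.86 to 6.64 within the pairs of either group. Counts and medians over the 47 genes that rest on NS or IL4CD40 are therefore also given without each pair, with the values of single genes where they moved most, and other values of single genes rest on all 4 libraries of a group. Fits without a pair keep 2 libraries of that group that are much alike. Their p-values leave out the spread between the pairs and can be too small, so that passing in them is no check. The share of all genes called in those fits is not given here. The summed CPM of 6 B cell markers was 5310 to 8327 in NS, 4358 to 4459 with LPS, 3902 to 4344 with IL4CD40, 3011 to 3193 with LPS and DSF and 3162 to 3345 with IL4CD40 and DSF, and that of 5 myeloid markers was 511 to 657 in NS and 115 to 280 in the other groups, in each case with no marker at 0. T cell markers summed to 17.96 to 45.1 CPM, neutrophil markers to 9.45 to 63.5, erythroid markers to 1.2505 to 15.9 and NK cell markers to 0.836 to 14.0 over all 20 libraries. The part of these cells in the changes below was not tested, and in bulk RNA fewer cells of a type and less RNA per cell cannot be told apart. The libraries of a group are described as biologically independent, but the sources used here do not say whether they came from separate mice or separate cultures, so that p-values measure the spread between these libraries.

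To find how far each stimulus raised these genes, each stimulated group was compared with NS. With LPS, 46 of the 47 genes were higher than in NS after 3 h (edgeR, adjusted p under 0.05), where 29.6% of all tested genes were called higher. The median log2 difference over the 47 genes was 1.48, a 2.79-fold rise, against -0.046 over all genes tested. With IL4CD40, 46 of the 47 were again higher, where 30.4% of all tested genes were, and the median was 1.67, a 3.18-fold rise, against -0.041 over all genes. The gene that missed the threshold was Imp3 in both comparisons. No member was called lower in either comparison, by edgeR or DESeq2, nor at an unadjusted p under 0.05. Compared with NS libraries 3 and 4 alone, the medians were 1.85 for LPS and 1.94 for IL4CD40, and compared with NS libraries 1 and 2 alone they were 1.21 and 1.34. The number of genes called higher was 46 or 47 in each case, Imp3 passing with LPS against NS libraries 1 and 2 alone (0.21, adjusted p = 0.0036). For single genes the log2 rise against NS libraries 3 and 4 exceeded that against libraries 1 and 2 by a median of 0.60 with LPS and 0.61 with IL4CD40, from -0.074 and -0.059 for Emg1 to 1.04 and 1.06 for Rrp1b. No member changed sign between the pairs. Without IL4CD40 libraries 1 and 2, or 3 and 4, 46 genes were higher than NS in each case, with medians of 1.57 and 1.79.

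**Figure D1:**
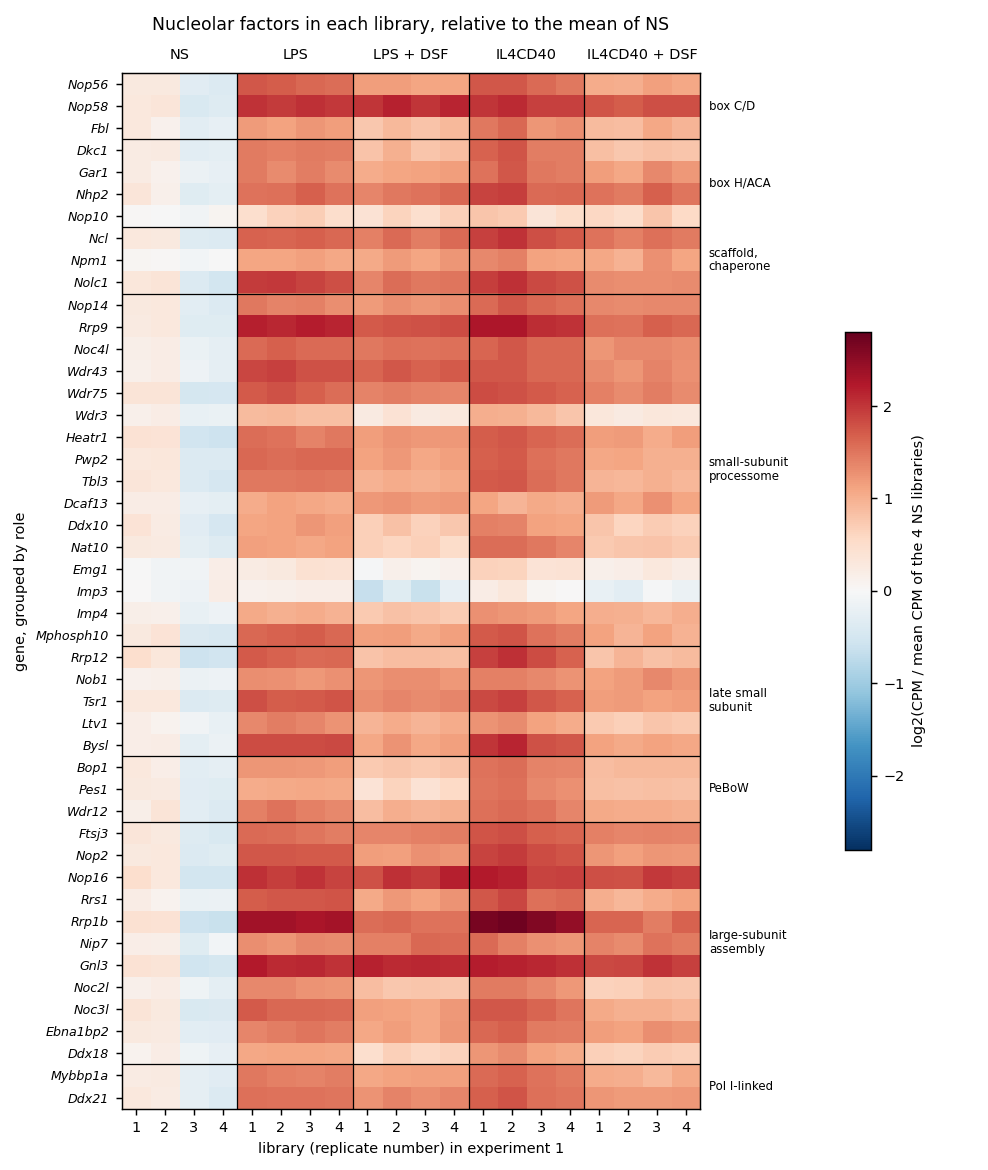
Heat map of the 47 genes (rows, grouped by role) in the 20 libraries of the first experiment (columns, by group and replicate number). Colour gives the log2 ratio of normalized CPM to the mean of the 4 NS libraries. All rows but that of Imp3, and weakly that of Emg1, turn red with either stimulus, and NS libraries 1 and 2 are redder than 3 and 4. Most rows stay red with DSF, and those of Nop58, Gnl3 and Nip7 are among the rows at least about as red under LPS + DSF as under LPS.

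Rrp1b, a large-subunit assembly factor, had the largest rise with both stimuli. Its CPM, normalized by the trimmed mean of M-values (TMM), was 55.8, 55.1, 27.9 and 26.9 in NS, 213, 212, 202 and 209 with LPS, and 262, 275, 248 and 227 with IL4CD40. All stimulated libraries were above all NS libraries, and those with IL4CD40 were above those with LPS. The log2 differences from NS in edgeR's quasi-likelihood test were 2.34 (SE 0.25, adjusted p = 6.5e-05) and 2.67 (SE 0.26, adjusted p = 3.6e-05). Against NS libraries 1 and 2 alone the differences of Rrp1b were 1.92 and 2.22, and against NS libraries 3 and 4 alone they were 2.96 and 3.27, the largest of the 47 genes in each case. Rrp9, a protein of the snoRNP at the core of the small-subunit processome, was next, from 56.5, 58.6, 37.5 and 37.9 CPM in NS to between 205 and 218 with LPS and between 195 and 230.4 with IL4CD40. Its log2 differences were 2.15 (SE 0.16) and 2.22 (SE 0.17). Gnl3, the nucleolar GTPase nucleostemin, rose by 2.12 (SE 0.23) and 2.18 (SE 0.23), and Gnl3 came second, above Rrp9, against NS libraries 3 and 4 alone, at 2.67 and 2.72.

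At the other end stood Imp3, which binds the small-subunit precursor together with Imp4 and Mphosph10. Imp3 had 45.1, 41.6, 40.3 and 52.1 CPM in NS, 48.3, 49.6, 50.6 and 51.2 with LPS, and 52.0, 55.6, 46.8 and 45.4 with IL4CD40. The groups overlapped, and the log2 differences of 0.16 (SE 0.088, adjusted p = 0.15) and 0.21 (SE 0.11, adjusted p = 0.13) did not pass edgeR's test. The difference with LPS turned to -0.067 under scaling by total counts, and without NS replicate 4 both passed, at 0.24 (adjusted p = 0.011) and 0.30 (adjusted p = 0.040). Imp3 is 1 of 2 members, with Rrs1, whose exons form a single block. Imp4 rose by 1.02 (SE 0.092) and 1.26 (SE 0.10), and Mphosph10 by 1.64 (SE 0.19) and 1.67 (SE 0.20). Emg1, a methyltransferase of the small-subunit rRNA, rose by 0.33 (SE 0.086) and 0.57 (SE 0.11), and Nop10, a small protein of the box H/ACA snoRNPs, by 0.58 (SE 0.070) and 0.66 (SE 0.11). The difference of Emg1 with LPS was 0.11 and not called under scaling by total counts (adjusted p = 0.29).

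Among box C/D proteins, the log2 rises of the scaffold proteins were 1.65 (SE 0.16) and 1.70 (SE 0.17) for Nop56 and 2.00 (SE 0.18) and 2.04 (SE 0.19) for Nop58 with LPS and IL4CD40, and those of the methyltransferase fibrillarin, Fbl, were 1.18 (SE 0.13) and 1.47 (SE 0.15). In the box H/ACA group, the pseudouridine synthase Dkc1 rose by 1.44 (SE 0.13) and 1.64 (SE 0.16). Its partner Gar1 rose by 1.39 (SE 0.10) and 1.60 (SE 0.12) and Nhp2 by 1.56 (SE 0.15) and 1.82 (SE 0.17). All 3 box C/D and all 4 box H/ACA genes were called higher with either stimulus.

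All 3 scaffold and chaperone genes were called higher with either stimulus, with medians of 1.64 and 1.92. The snoRNP chaperone Nolc1 rose by 1.92 (SE 0.20) and 1.97 (SE 0.21), nucleolin, Ncl, an abundant RNA-binding protein, by 1.64 (SE 0.17) and 1.92 (SE 0.18), and the chaperone nucleophosmin, Npm1, by 1.11 (SE 0.061) and 1.31 (SE 0.10). Levels were compared between genes per length, in the fragments scaled to gene length and depth (FPKM) computed by the authors. On that scale Npm1 had the highest level of the 47 genes in NS, at 234 ± 11.0 FPKM (SD, n = 4), followed by Ncl at 100.2 ± 26.8 and the helicase Ddx21 at 64.0 ± 15.3. These genes kept ranks 1, 2 and 3 with LPS and with IL4CD40, where Npm1 reached 501 ± 12.0 and 572 ± 72.2 FPKM. The median level over the 47 genes was 22.2 FPKM in NS, 58.5 with LPS and 63.8 with IL4CD40. Neighbours in the order often lay within each other's SD, as did Mybbp1a (55.8 ± 12.2), Nhp2 (52.9 ± 12.6) and Noc2l (52.6 ± 8.55) in NS. The lowest level in NS was that of Wdr12, at 3.30 ± 0.843 FPKM. Imp3 moved from rank 7 in NS to rank 28 with LPS and Emg1 from rank 27 to rank 44. The NS median was 27.3 FPKM in libraries 1 and 2 and 16.8 in libraries 3 and 4, where Npm1, Ncl and Ddx21 kept the first ranks while Imp3 had ranks 9 and 4 and Emg1 ranks 31 and 22.

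Of the 16 genes of the small-subunit processome, 15 were called higher with either stimulus, with medians of 1.44 and 1.66. Heatr1, Wdr43 and Pwp2, scaffold proteins that bind the precursor early, rose by 1.495 (SE 0.24), 1.84 (SE 0.11) and 1.60 (SE 0.17) with LPS, and by 1.71 (SE 0.24), 1.73 (SE 0.11) and 1.66 (SE 0.18) with IL4CD40. Heatr1 depended strongly on the NS pair, at 1.09 and 1.28 against libraries 1 and 2 and at 2.08 and 2.29 against libraries 3 and 4. All 5 genes of late small-subunit maturation were called higher with either stimulus. Among them, Bysl rose by 1.84 (SE 0.11) and 1.98 (SE 0.14), and Nob1, the endonuclease of the last cut in the small-subunit rRNA, by 1.27 (SE 0.081) and 1.42 (SE 0.095).

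All 3 genes of the PeBoW complex, which large-subunit processing needs, were called higher. Pes1 rose by 1.06 (SE 0.15) and 1.48 (SE 0.17), Bop1 by 1.22 (SE 0.13) and 1.52 (SE 0.14) and Wdr12 by 1.42 (SE 0.15) and 1.57 (SE 0.16). All 11 genes of large-subunit assembly were called higher, with medians of 1.63 and 1.75. They included the rRNA methyltransferase Nop2 at 1.73 (SE 0.16) and 1.91 (SE 0.17) and Ebna1bp2 at 1.44 (SE 0.14) and 1.60 (SE 0.16). Both factors linked to RNA polymerase I rose, the helicase Ddx21 by 1.52 (SE 0.15) and 1.68 (SE 0.16) and Mybbp1a by 1.43 (SE 0.14) and 1.61 (SE 0.15).

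The stimuli were also compared with each other. Between IL4CD40 and LPS, 11 of the 47 genes were higher with IL4CD40, where 17.3% of all tested genes were, and 1, Wdr43, was lower, where 22.3% were. The 5 with the lowest p were Nat10, an rRNA acetyltransferase (0.37, SE 0.055, adjusted p = 0.00022), Pes1 (0.36, SE 0.064, adjusted p = 0.00085), Rrp1b (0.27, SE 0.061, adjusted p = 0.0039), Bop1 (0.24, SE 0.055, adjusted p = 0.0043) and Nop14 (0.22, SE 0.056, adjusted p = 0.0078). For Nat10 the LPS libraries had 178, 177, 170.2 and 175 CPM and the IL4CD40 libraries 237, 237, 225 and 206, with no overlap. Wdr43 stood at -0.17 (SE 0.055, adjusted p = 0.030). Scaling by total counts, which moved the median of all genes from 0.0062 to 0.14, called 32 genes higher and none lower, where 33.5% of all genes were then higher and 17.2% lower. A single fit of all 20 libraries called 2. Leaving out LPS replicate 2 or 4 left 7, and leaving out IL4CD40 replicate 4 gave 21, all higher, without Wdr43. Without IL4CD40 libraries 1 and 2, 8 genes were higher and 4 lower, namely Wdr43, Rrs1, Mphosph10 and Ltv1, with a median of 0.0037 over the 47 genes, and without IL4CD40 libraries 3 and 4, 33 were higher and none lower, with a median of 0.20. The 5 genes named above passed in both, Nat10 at 0.30 and 0.44, whereas Wdr43 passed only without libraries 1 and 2 (-0.23, against -0.10 without libraries 3 and 4). These fits keep 1 pair of IL4CD40 libraries, so that their p-values leave out the spread between the pairs. The share of all genes called in them is not given here.

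Lists of neighbouring genes were read beside these 47. Of 74 tested genes of other ribosome biogenesis factors, 70 were higher with LPS and 71 with IL4CD40, with medians of 1.17 and 1.28. The largest were Nle1 at 1.93 (SE 0.17) with LPS and Utp4 at 2.08 (SE 0.19) with IL4CD40. Nol7 with LPS (-0.21, SE 0.067, adjusted p = 0.022) and Nop53 with IL4CD40 (-0.36, SE 0.11, adjusted p = 0.017) were lower. Of 14 genes of the RNA polymerase I machinery, 13 were higher with either stimulus, led by the polymerase subunit Polr1b at 2.00 (SE 0.26) and 2.13 (SE 0.27). Of the 79 genes of cytosolic ribosomal proteins 4 were higher with either stimulus, and 1 and 9 were lower. Their medians were -0.041 and -0.087, turning to -0.26 and -0.23 under scaling by total counts, where all genes were at -0.27 and -0.19 and 36 and 27 ribosomal protein genes were called lower and 2 and 4 higher. Of all tested genes 44.1% and 38.6% were then called lower and 20.1% and 23.9% higher. In a single fit of all 20 libraries 2 and 23 ribosomal protein genes were lower. Their direction turned with the NS pair, since against NS libraries 1 and 2 alone 59 and 15 were higher and 1 and 6 lower (medians 0.17 and 0.072), and against NS libraries 3 and 4 alone 5 and 4 were higher and 48 and 42 lower (medians -0.17 and -0.24). The other biogenesis genes called higher were 70 or 71 against either pair, with medians of 0.96 and 1.05 against NS libraries 1 and 2 and of 1.43 and 1.52 against NS libraries 3 and 4, and the RNA polymerase I genes called higher were 13 in each case. Myc rose by 3.65 (SE 0.18) with LPS and by 2.41 (SE 0.18) with IL4CD40, and by 3.36 and 2.09 against NS libraries 1 and 2 alone.

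The E-box CACGTG, the letters that MYC and related factors bind, was searched in promoters, on both strands at once because it is its own reverse complement. RefSeq promoter windows on GRCm38.p6, from 250 bases before to 50 bases after a gene start, were at hand for 40 of the 47 genes in 44 windows. The E-box was found for 7 of the 40 genes (17.5%), against 8.09% of 27025 genes with a window and 11.7% of 9815 such genes tested with LPS. It was found for 23.8% of 63 other ribosome biogenesis genes and 10.3% of 58 ribosomal protein genes. The letters G and C made up a median of 59.3% of the members' windows and 52.7% of all windows. The part of this difference in the number of matches was not tested. The median log2 rise of the 7 genes with an E-box was 1.43 with LPS and 1.61 with IL4CD40, and that of the other 33 was 1.52 and 1.68. Against NS libraries 1 and 2 alone these medians were 1.22 and 1.34 with an E-box and 1.215 and 1.37 without one, and against NS libraries 3 and 4 alone they were 1.74 and 1.91 with an E-box and 1.86 and 2.04 without one. A match is a description of these letters only. The 7 stretches are shown because they are the members' E-boxes, each with the bases on either side, 5′ to 3′ on the strand of the gene, with the E-box in capitals:
Pes1, chr11:3963962-3963997, plus strand: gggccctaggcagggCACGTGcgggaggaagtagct
Nop2, chr6:125131808-125131843, plus strand: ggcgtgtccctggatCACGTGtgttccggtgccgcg
Wdr43, chr17:71616217-71616252, plus strand: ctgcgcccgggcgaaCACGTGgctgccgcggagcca
Tsr1, chr11:74898089-74898124, plus strand: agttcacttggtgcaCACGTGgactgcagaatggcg
Ltv1, chr10:13193089-13193124, minus strand: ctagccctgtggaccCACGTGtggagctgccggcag
Mybbp1a, chr11:72441352-72441376, plus strand, where the window ends: actgtcttctgagccCACGTGtttg
Imp4, chr1:34439693-34439728, plus strand: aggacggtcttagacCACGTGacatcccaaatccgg

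In Pes1, Wdr43, Tsr1, Ltv1 and Mybbp1a the E-box began 3, 18, 25, 29 and 41 bases into the transcript, counted from 1 at the annotated start, and in Nop2 and Imp4 it began 60 and 121 bases before the start. The promoters of the member with the largest and of the member with the smallest rise in both stimuli follow for comparison, 5′ to 3′ on the strand of the gene. Neither window holds the E-box, so that no letter is in capitals, and Rrp1b has another annotated window downstream, which does not hold it either:
Rrp1b, chr17:32035912-32036211, plus strand: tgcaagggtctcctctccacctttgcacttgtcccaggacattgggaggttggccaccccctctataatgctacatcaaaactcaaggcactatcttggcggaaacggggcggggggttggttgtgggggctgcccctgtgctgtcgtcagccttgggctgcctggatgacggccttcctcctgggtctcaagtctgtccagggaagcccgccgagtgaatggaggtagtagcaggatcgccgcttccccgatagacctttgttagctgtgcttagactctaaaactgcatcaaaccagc
Imp3, chr9:56937250-56937549, plus strand: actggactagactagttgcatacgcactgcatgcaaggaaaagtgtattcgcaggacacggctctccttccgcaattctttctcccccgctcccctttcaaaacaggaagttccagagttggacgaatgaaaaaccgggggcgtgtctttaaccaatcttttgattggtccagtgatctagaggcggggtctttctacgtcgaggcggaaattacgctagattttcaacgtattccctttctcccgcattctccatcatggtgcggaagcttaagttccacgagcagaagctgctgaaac

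The question of the inhibitor was how much of this rise was reached with disulfiram. With 1 µM DSF, 37 of the 47 genes were lower than with LPS alone, where 36% of all tested genes were lower, and 43 were lower than with IL4CD40 alone, where 31.6% were. The medians were -0.33 under LPS, a 1.26-fold fall, and -0.54 under IL4CD40, a 1.46-fold fall, while the median of all genes was at 0.0019 and -0.015. Under LPS 2 genes were higher with DSF, Nip7 and Dcaf13, where 35.1% of all genes were higher, and 8 were not called. Under IL4CD40 no gene was called higher by edgeR or DESeq2, and none at an unadjusted p under 0.05. The 4 genes not called there were Npm1, Nip7, Nop10 and Dcaf13. Scaling by total counts moved the median of all genes to -0.21 and -0.16 and that of the 47 genes to -0.54 and -0.69, with 45 and 44 genes called lower and none higher. Of all tested genes 47.2% under LPS and 40.9% under IL4CD40 were then called lower, and 24.5% and 22.9% higher. Lower calls were then 65.8% of all calls under LPS and 64.1% under IL4CD40, against 50.6% and 51.2% with TMM. Without IL4CD40 libraries 1 and 2, or 3 and 4, 40 and 46 genes were lower with DSF under IL4CD40, with medians of -0.46 and -0.64. B cell markers also fell with DSF: all 6 were called lower under LPS, with a median of -0.56, and 4 of 6 under IL4CD40, with 1 higher and a median of -0.52, so that their medians were beyond that of the 47 genes under LPS and near it under IL4CD40. The part of this fall in the results of the 47 genes was not tested.

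The largest falls were those of Rrp1b and of Rrp12, a factor of late small-subunit maturation. Rrp1b went from between 202 and 213 CPM with LPS to 123, 126, 118 and 119 with LPS and DSF, and from between 227 and 275 CPM with IL4CD40 to 128, 129, 112 and 130.3. The libraries with DSF were all below those without it and all above NS. Rrp1b fell by 0.76 (SE 0.040, adjusted p = 1.1e-14) and fell by 1.08 (SE 0.073, adjusted p = 1.2e-06) on the log2 scale. Rrp12 fell by 0.78 (SE 0.041, adjusted p = 1.1e-14) under LPS and by 1.07 (SE 0.081, adjusted p = 1.6e-06) under IL4CD40.

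**Figure D2:**
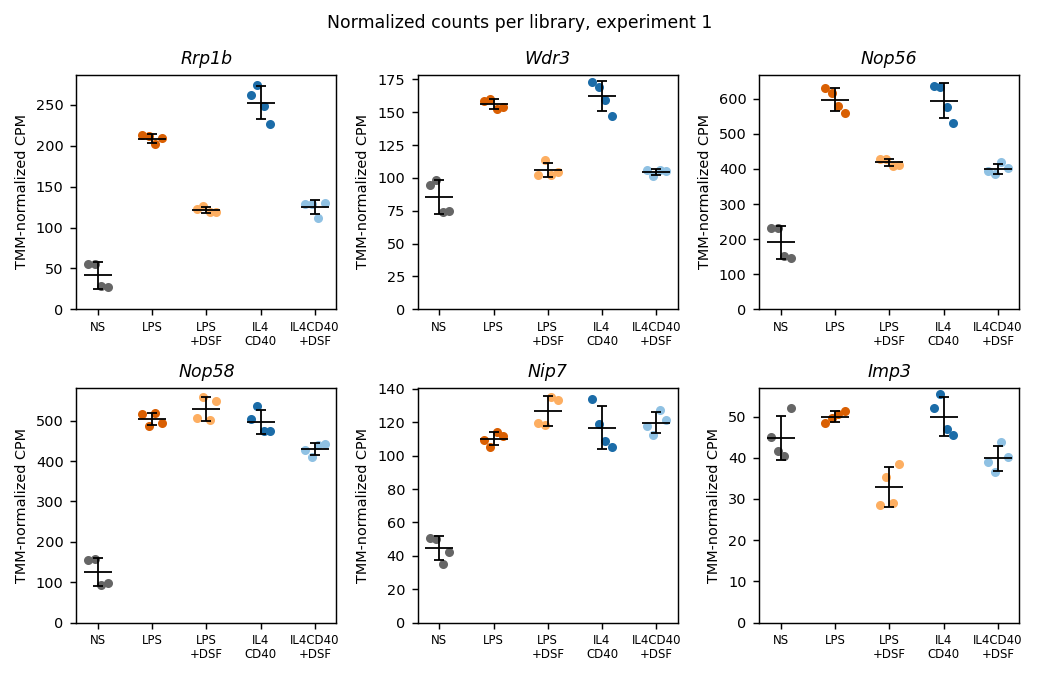
TMM-normalized CPM of 6 genes in each of the 20 libraries of the first experiment (points), with the mean and SD of each group of 4 (bars). Rrp1b, Wdr3 and Nop56 are lower with DSF under both stimuli, Nop58 and Nip7 are as high or higher with DSF under LPS, and Imp3, which neither stimulus raised past the test, is lowest with LPS and DSF.

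With DSF most genes remained above NS. Under LPS with DSF 45 of the 47 genes were higher than NS, where 34.3% of all tested genes were, and 1, Imp3, was lower (-0.46, SE 0.12, adjusted p = 0.0082), where 37.3% were. Under IL4CD40 with DSF 46 were higher, where 33.4% of all genes were. The medians were 1.14 and 1.11. They were 1.45 and 1.43 against NS libraries 3 and 4 alone, and 0.84 and 0.84 against NS libraries 1 and 2 alone. Wdr3 was no longer called above NS libraries 1 and 2 alone under either stimulus, nor Emg1 above NS libraries 3 and 4 alone under IL4CD40. The remaining gene under LPS, Emg1, stood at 0.071 (SE 0.083, adjusted p = 0.46). Imp3 had 28.6, 35.4, 28.9 and 38.4 CPM with LPS and DSF, below all NS and LPS libraries. Scaling by total counts left 37 and 42 genes above NS and put 2 and 1 below it. Of all tested genes 21.5% and 21.2% were then called higher than NS, and 50.8% and 46.1% lower.

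The fall with DSF was then set against the rise, as the share of the induction removed: the difference between the means without and with DSF, divided by the difference between the stimulated mean and the NS mean, on normalized CPM. A share of 100% puts the gene at NS, and a negative share puts it above the stimulated level. As the cells were pre-treated, "removed" does not mean that a rise was first reached and then reversed. The stimulated libraries enter both differences, so that the share is a description with no test. For the 46 genes raised, the median share was 35.0% under LPS and 45.1% under IL4CD40, and over the 4 DSF libraries taken singly the median ran from 30.3% to 38.5% under LPS and from 43.1% to 46.7% under IL4CD40. All genes raised at least 1.5-fold had medians of 14.3% under LPS (2872 genes) and 24.5% under IL4CD40 (2874 genes). Without NS libraries 1 and 2 the medians of the 46 genes were 32.0% and 41.1%, and without NS libraries 3 and 4 they were 38.2% and 51.4%. The median under IL4CD40 was 40.6% without IL4CD40 libraries 1 and 2 and 50.8% without IL4CD40 libraries 3 and 4. For single genes raised at least 1.5-fold, the share against NS libraries 1 and 2 exceeded that against NS libraries 3 and 4 by a median of 6.75 percentage points under LPS, from -6.18 for Dcaf13 to 24.5 for Pes1, and of 7.87 under IL4CD40, from -6.05 for Dcaf13 to 22.1 for Wdr3, with no change of sign. Under IL4CD40 the share without IL4CD40 libraries 3 and 4 exceeded that without libraries 1 and 2 by a median of 10.0055 points, from 0.362 for Dcaf13 to 72.5 for Nop10, and Nop10 and Nip7 changed sign. Under scaling by total counts they were 58.2% and 61.8%.

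**Figure D3:**
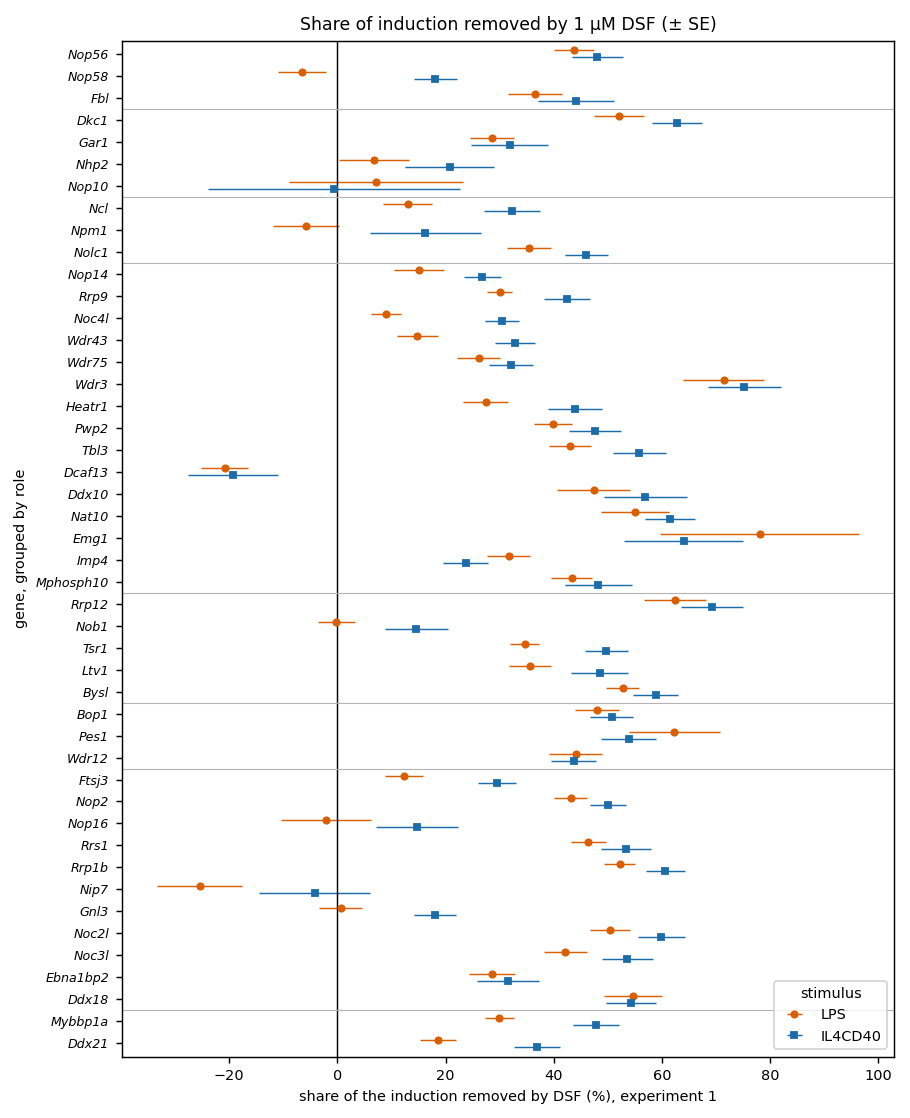
Share of the induction removed by 1 µM DSF in the first experiment (horizontal axis, percent) for the 46 genes raised by the stimuli (rows, grouped by role), as circles for LPS and squares for IL4CD40, with bars for the SE. Shares spread from -25.5% for Nip7 under LPS to 78.1% for Emg1 under LPS, and Nop58, Npm1, Nob1, Nop16, Gnl3, Nip7 and Dcaf13 lie near or left of 0 under LPS.

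The share differed widely between members of the same complex. In box C/D, Nop56 had 190.4 ± 47.1 CPM in NS, 597 ± 33.0 with LPS and 419 ± 10.6 with LPS and DSF (SD, n = 4). The shares of Nop56 were 43.8% (SE 3.65) and 48.1% (SE 4.65). Its partner Nop58 had 516, 487, 520.0 and 495 CPM with LPS and 508, 558, 502 and 549.6 with LPS and DSF. These groups overlapped, the log2 difference was 0.086 (SE 0.041, adjusted p = 0.068), and the share was -6.52% (SE 4.42). The difference was called higher by DESeq2 at 0.096 (adjusted p = 0.030) and turned to -0.12 (adjusted p = 0.0088) under scaling by total counts. Under IL4CD40 Nop58 fell by 0.27 (SE 0.056, adjusted p = 0.0014) with DSF, a share of 18.1% (SE 3.89), a call lost in a single fit of all 20 libraries (-0.21, adjusted p = 0.17). The shares of Fbl were 36.6% (SE 4.97) and 44.1% (SE 7.01).

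In box H/ACA, Dkc1 had shares of 52.1% (SE 4.61) and 62.8% (SE 4.66), Gar1 of 28.6% (SE 4.07) and 31.8% (SE 7.04) and Nhp2 of 6.79% (SE 6.45) and 20.8% (SE 8.22). Nop10 was not called with DSF under either stimulus, with log2 differences of -0.018 (SE 0.057, adjusted p = 0.79) and -0.059 (SE 0.098, adjusted p = 0.63). The second was 0.13 (adjusted p = 0.18) without IL4CD40 libraries 1 and 2 and -0.22 (adjusted p = 0.016) without IL4CD40 libraries 3 and 4. Nhp2 was not called under LPS (-0.049, SE 0.047, adjusted p = 0.36) and fell by 0.29 (SE 0.089, adjusted p = 0.014) under IL4CD40, which was not called in a single fit of all 20 libraries (adjusted p = 0.12) or without IL4CD40 libraries 1 and 2 (adjusted p = 0.19). Dkc1 alone among the 4 lost more than 50% of its rise, from between 288 and 295 CPM with LPS to between 185 and 213 with LPS and DSF, with NS between 87.8 and 128.

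Of the scaffold and chaperone genes, Npm1 had 1361, 1355, 1408 and 1327 CPM with LPS and 1325, 1451, 1349 and 1496 with LPS and DSF, groups that overlapped. Its log2 differences with DSF were 0.061 (SE 0.042, adjusted p = 0.20) under LPS and -0.20 (SE 0.088, adjusted p = 0.064) under IL4CD40, and the first turned to -0.15 (adjusted p = 0.0016) under scaling by total counts. Ncl fell by 0.12 (SE 0.043, adjusted p = 0.019) and fell by 0.45 (SE 0.074, adjusted p = 0.00029), with shares of 13.0% (SE 4.47) and 32.3% (SE 5.10). The fall of Ncl under LPS was not called in a single fit of all 20 libraries (adjusted p = 0.38) or without LPS_DSF replicate 3 (adjusted p = 0.094). Nolc1 had larger shares, of 35.4% (SE 4.10) and 46.0% (SE 4.01).

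In the small-subunit processome 14 of 16 genes were lower with DSF under LPS and 15 under IL4CD40. Among genes raised at least 1.5-fold, Wdr3, a WD-repeat protein of the processome, had the largest share under both stimuli. Wdr3 had 94.4, 98.6, 73.9 and 75.1 CPM in NS, 159, 159.8, 152 and 154 with LPS, and 102, 114, 102 and 105 with LPS and DSF. Its shares were 71.4% (SE 7.53) and 75.2% (SE 6.74), running from 61.8% and 65.8% against NS libraries 3 and 4 to 84.5% and 87.9% against NS libraries 1 and 2, the largest under either pair. Emg1, with its smaller rise, had 78.1% (SE 18.4) and 64.0% (SE 11.0). Pwp2 had 39.9% (SE 3.44) and 47.7% (SE 4.78), Imp4 31.7% (SE 3.96) and 23.7% (SE 4.19), Heatr1 27.5% (SE 4.15) and 44.0% (SE 5.03), and Wdr43 14.8% (SE 3.80) and 32.9% (SE 3.67). The calls of Heatr1 and Wdr43 under LPS were lost in a single fit of all 20 libraries (adjusted p = 0.15 and 0.096).

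Dcaf13, also of the processome, went the other way under LPS. It had 107, 113, 109 and 106 CPM with LPS and 120.3, 124, 118 and 120.0 with LPS and DSF, with no overlap, a log2 difference of 0.17 (SE 0.041, adjusted p = 0.00079). Under scaling by total counts this difference was -0.042 and was not called, and in a single fit of all 20 libraries it was 0.15 with an adjusted p of 0.16. Under IL4CD40 it stood at 0.075 (SE 0.058, adjusted p = 0.29), or -0.075 by total counts. Its shares were -20.8% (SE 4.33) and -19.2% (SE 8.29).

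In late small-subunit maturation, Rrp12 had shares of 62.4% (SE 5.72) and 69.3% (SE 5.79) and Bysl of 52.7% (SE 3.13) and 58.9% (SE 4.14). The endonuclease Nob1 had 124, 122, 118 and 123 CPM with LPS and 119.7, 125, 125 and 117 with LPS and DSF, overlapping, and its share was -0.154% (SE 3.38). Its log2 difference of 0.018 (SE 0.041, adjusted p = 0.71) turned to -0.19 (adjusted p = 0.00030) under scaling by total counts. Under IL4CD40 Nob1 fell by 0.20 (SE 0.060, adjusted p = 0.014), a share of 14.6% (SE 5.78), which was not called without IL4CD40 replicate 2 (adjusted p = 0.051), without IL4CD40 libraries 1 and 2 (adjusted p = 0.13) or in a single fit of all 20 libraries (adjusted p = 0.10).

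All 3 PeBoW genes fell with DSF under both stimuli. The shares were 62.3% (SE 8.45) and 53.9% (SE 5.07) for Pes1, which under LPS ran from 52.4% against NS libraries 3 and 4 to 76.9% against NS libraries 1 and 2, 48.0% (SE 4.11) and 50.7% (SE 4.02) for Bop1, and 44.0% (SE 4.82) and 43.7% (SE 4.12) for Wdr12. In large-subunit assembly 8 of 11 genes fell under LPS and 10 under IL4CD40. Nop2 had shares of 43.1% (SE 3.02) and 50.1% (SE 3.37) and Ebna1bp2 of 28.6% (SE 4.24) and 31.6% (SE 5.72).

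Gnl3, Nop16 and Nip7 were not called lower under LPS with DSF. Gnl3 had 447, 408, 409 and 390.1 CPM with LPS and 422, 407, 412 and 406 with LPS and DSF, a share of 0.607% (SE 3.95). Nip7, which acts in large-subunit assembly, had 109, 105, 114 and 112 CPM with LPS and 119.7, 118, 135 and 133 with LPS and DSF. These did not overlap, and the log2 difference was 0.22 (SE 0.047, adjusted p = 0.00020), a share of -25.5% (SE 7.92). The rise of Nip7 with DSF was 0.012 and not called under scaling by total counts, and it missed the threshold in a single fit of all 20 libraries (adjusted p = 0.078). Under IL4CD40 Nip7 stood at -0.025 (SE 0.080, adjusted p = 0.80), or at 0.12 (adjusted p = 0.0996) without IL4CD40 libraries 1 and 2 and at -0.15 (adjusted p = 0.04998) without IL4CD40 libraries 3 and 4. Gnl3 fell by 0.28 (SE 0.057, adjusted p = 0.0013) under IL4CD40, a call lost in a single fit of all 20 libraries (-0.22, adjusted p = 0.25). Nop16 was at 0.038 (SE 0.054, adjusted p = 0.54) under LPS, and Gnl3 at 0.010 (SE 0.043, adjusted p = 0.84), which turned to -0.17 and -0.20 under scaling by total counts. Under IL4CD40 Nop16 fell by 0.23 (SE 0.085, adjusted p = 0.032), a call lost without IL4CD40 replicate 1 or 2 or without IL4CD40_DSF replicate 1, 2 or 4 (adjusted p from 0.054 to 0.098), with at least 10 counts asked in every library (0.052), with the replicate block (0.057), in a single fit of all 20 libraries (0.40) and without IL4CD40 libraries 1 and 2 (0.43). The factors linked to RNA polymerase I fell under both stimuli, with shares of 18.6% (SE 3.42) and 36.9% (SE 4.31) for Ddx21 and of 30.0% (SE 2.74) and 47.8% (SE 4.31) for Mybbp1a. In a single fit of all 20 libraries, 30 of the 47 genes were called lower with DSF under LPS and 38 under IL4CD40, and none higher by edgeR (1 and 0 at an unadjusted p under 0.05). The share of all genes called in that fit is not given here. The calls lost there under LPS were those of Ncl, Ftsj3, Nop14, Wdr43, Wdr75, Heatr1 and Ddx21 (adjusted p from 0.095 for Wdr75 to 0.43 for Ftsj3, with 0.15 for Ddx21), and under IL4CD40 those of Nop58, Nop16, Gnl3, Nob1 and Nhp2.

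Whether DSF acted differently under the stimuli was tested in 1 model of 16 libraries. For 16 of the 47 genes the log2 change with DSF was lower under IL4CD40 than under LPS, where 7.92% of all tested genes were, and for none was it higher by edgeR or DESeq2 or at an unadjusted p under 0.05. The 5 with the lowest p were Noc4l (-0.32, SE 0.066, adjusted p = 0.0023), Nop58 (-0.35, SE 0.074, adjusted p = 0.0028), Mybbp1a (-0.32, SE 0.073, adjusted p = 0.0055), Heatr1 (-0.31, SE 0.075, adjusted p = 0.0082) and Ftsj3 (-0.28, SE 0.070, adjusted p = 0.0090). Noc4l, of the processome, had 127, 136, 128 and 127 CPM with LPS and 118, 123, 122 and 124 with LPS and DSF. It had 132, 142, 130.1 and 129.7 CPM with IL4CD40 and 100.5, 108, 109 and 106 with IL4CD40 and DSF. In both pairs all DSF libraries were below those without it, by a wider gap under IL4CD40. A single edgeR fit of all 20 libraries called none of the 47 (1 at an unadjusted p under 0.05), and without IL4CD40 replicate 4 the count was 28. The count also turned on the IL4CD40 pair. Without IL4CD40 libraries 1 and 2 the change was lower under IL4CD40 for 8 genes and higher for 1, Imp3, with a median of -0.095 against -0.22 with all libraries, and without IL4CD40 libraries 3 and 4 it was lower for 41 genes, with a median of -0.35. The 5 genes named above passed in both, Noc4l at -0.26 and -0.37. With only 1 pair of IL4CD40 libraries kept, these p-values leave out the spread between the pairs, so that passing is no check. The share of all genes called without a pair is not given here, so these counts cannot be set against all genes.

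In the neighbouring lists, 48 of 74 other ribosome biogenesis genes were lower with DSF under LPS and 59 under IL4CD40, with medians of -0.27 and -0.43, and 14 and 6 were higher. Without IL4CD40 libraries 1 and 2, 48 were lower under IL4CD40. Sbds, which helps release a factor from the late large subunit, was the highest, at 0.68 (SE 0.043) and 0.59 (SE 0.060), and the helicase Ddx55 the lowest, at -1.38 (SE 0.076) and -1.27 (SE 0.081). Of the RNA polymerase I genes 9 and 10 of 14 were lower, and 4 and 1 were higher. Of the ribosomal protein genes 73 and 67 of 79 were higher and none lower by edgeR or DESeq2 or at an unadjusted p under 0.05. Their medians were 0.25 and 0.35, and 0.038 and 0.20 under scaling by total counts, where all genes stood at -0.21 and -0.16 and 15 and 46 of the ribosomal protein genes were called higher and 6 and 2 lower. Of all tested genes 24.5% and 22.9% were then called higher and 47.2% and 40.9% lower. In a single fit of all 20 libraries 34 and 68 ribosomal protein genes were called higher and none lower. Myc fell by 0.44 (SE 0.040) under LPS and fell by 0.63 (SE 0.067) under IL4CD40.

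Members that host snoRNA genes were set beside the others, since snoRNAs are cut from spliced introns of their hosts. Of the 47 genes, 7 hold 21 annotated snoRNA genes within them: Nop56, Nop58, Dkc1, Ncl, Gnl3, Wdr43 and Tsr1. Their median share was 14.8% under LPS and 32.9% under IL4CD40, against 35.5% and 45.1% for the other genes raised at least 1.5-fold. Among the hosts themselves the share under LPS ran from -6.52% (SE 4.42) for Nop58 to 52.1% (SE 4.61) for Dkc1. Across the genes raised at least 1.5-fold, the share had a Spearman correlation of 0.33 with the number of exon blocks under LPS (44 genes) and of 0.49 under IL4CD40 (45 genes), and of -0.083 and -0.074 with the FPKM level in NS. The points share libraries, and genes are not independent replicates. An exon of 22 members overlaps an exon of another gene in GENCODE vM21, for 20 of them on the other strand, and the strand setting of the counting is not given in the sources used here, so reads of such pairs cannot be told apart. The members with an overlap on the other strand had median shares of 43.0% and 48.1%, and those with no overlap had 35.4% and 40.5%.

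The second experiment gave the same genes in 1 library per condition, so that its values have no replicate check and no test, and intervals for its counts cover counting error only. With LPS 35 of the 47 genes were at least 2-fold above NS, where 8.62% of 14275 genes were, and with IL4CD40 44 were, where 10.7% were. The median log2 ratios were 1.28 and 1.48. Imp3 was the lowest, at 0.45 with LPS and 0.49 with IL4CD40. The highest with LPS was Nop16, at 2.07, and the highest with IL4CD40 was Bysl, at 2.18.

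With DSF in this experiment 28 genes were at least 2-fold lower than with LPS alone, where 19.5% of all genes were, and 35 than with IL4CD40 alone, where 20.3% were. At least 20% lower were 43 genes under LPS, where 40.5% of all genes were, and 46 under IL4CD40, where 39.9% were. The median log2 ratios were -1.19 and -1.47. The median share of the induction removed was 98.0% under LPS and 95.9% under IL4CD40, and with DSF 22 and 20 of the 47 genes were below their NS level. Neither measure is given here for all genes, so how far these values are particular to the 47 genes cannot be told. Rrp1b had 50.8 CPM in NS, 165 with LPS, 26.5 with LPS and DSF, 208 with IL4CD40 and 33.6 with IL4CD40 and DSF. Both DSF values of Rrp1b lay below its NS value, with log2 ratios to the stimulus of -2.63 in each case. Dkc1 went from 94.5 CPM in NS to 243 with LPS and 50.02 with LPS and DSF. The largest shares under LPS were 169% for Pes1, 147% for Wdr3 and 144% for the helicase Ddx18. Under IL4CD40 they were 132% for Wdr3, 129% for Pes1 and 125% for Ddx18. Imp3, left out of the shares because neither stimulus raised it past the test, had 42.0 CPM in NS, 57.3 with LPS and 19.0 with LPS and DSF.

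Nop58, Nip7 and Npm1 kept most of their induction with DSF in this experiment. Nop58 had 130.4 CPM in NS, 426 with LPS and 383 with LPS and DSF. These came from 2802 (exact Poisson 95% interval 2699 to 2908), 7738 (exact Poisson 95% interval 7567 to 7912) and 6485 (exact Poisson 95% interval 6328 to 6645) counts. Its share was 14.3%, that of Nip7 18.7% and that of Npm1 19.6%, the lowest under LPS. Under IL4CD40 the lowest were Nip7 at 28.0%, Nop58 at 36.0% and Npm1 at 36.9%. Other genes not called lower under LPS in the first experiment had larger shares here, namely Gnl3 33.0%, Dcaf13 40.6%, Nhp2 66.5%, Nop16 67.9%, Noc4l 68.2%, Nob1 93.7% and Nop10 95.6%. Across the genes raised at least 1.5-fold in the first experiment, the shares of the experiments had a Spearman correlation of 0.88 under LPS (44 genes) and 0.83 under IL4CD40 (45 genes), a description across genes, which are not independent. The share was larger in the second experiment for all 44 and all 45. The experiments have no library in common, and their difference in DSF effect was not tested.

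**Figure D4:**
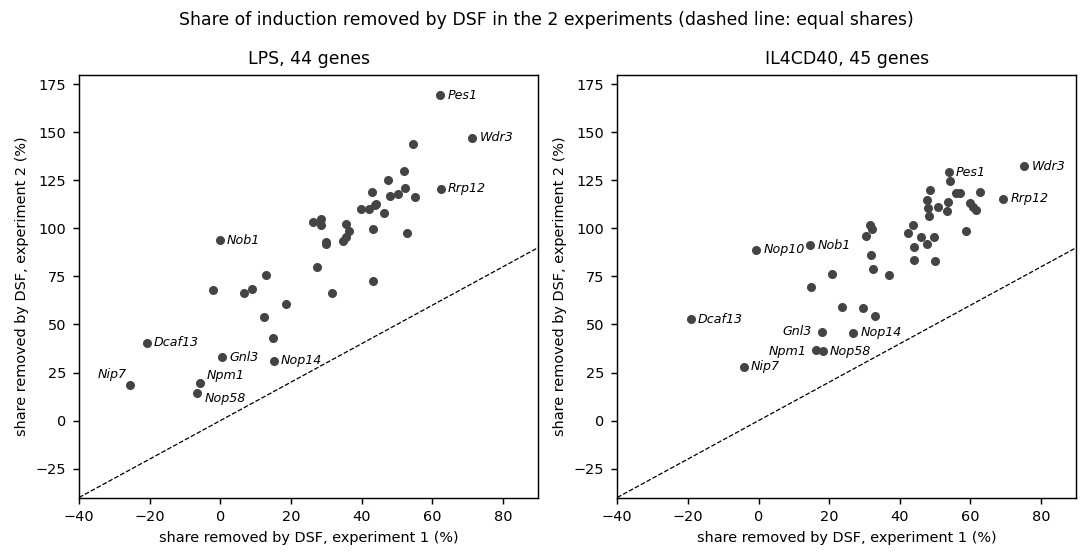
Share of the induction removed by 1 µM DSF in the first experiment (horizontal axis, percent, 4 libraries a group) against that in the second (vertical axis, percent, 1 library a condition), for LPS (left, 44 genes) and IL4CD40 (right, 45 genes). Each point is a gene, all points lie above the dashed line of equal shares, and Nop58, Npm1 and Nip7 are the lowest points in both panels.

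With 1 µM ibrutinib no gene of the set was 2-fold lower than with the stimulus alone, where 2.47% of all genes were under LPS and 1.69% under IL4CD40. At least 20% lower were 15 genes under LPS, where 16.6% of all genes were, and 18 under IL4CD40, where 15.1% were. All 47 ratios were below 0 under both stimuli, from -0.56 to -0.060 under LPS and from -0.61 to -0.025 under IL4CD40. Their medians were -0.29 and -0.30, where all genes stood at 0.0094 and 0.0043. No gene of the set fell below its NS level. The shares of all genes below 0 and below NS are not given here. The 47 ratios of a stimulus rest on the same libraries, so that they are not separate observations. The median share of the induction removed was 31.6% under LPS and 29.3% under IL4CD40. The largest shares under LPS were those of Pes1 at 61.1%, Fbl at 50.5% and Tbl3 at 44.1%, and the smallest those of Dcaf13 at 7.71%, Ddx18 at 13.0% and Mphosph10 at 14.3%. Under IL4CD40 Nhp2 at 45.8%, Rrp1b at 45.5% and Tbl3 at 41.6% had the largest and Ltv1 at 2.94%, Mphosph10 at 12.2% and Ddx10 at 15.6% the smallest.

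At the same dose and time DSF gave the lower level for 44 of the 47 genes under LPS and for 46 under IL4CD40. The exceptions were Nop58, Npm1 and Nip7 under LPS and Nip7 under IL4CD40. With LPS and ibrutinib Nop58 had 362 CPM, Npm1 1068 and Nip7 86.5, against 383, 1149 and 93.1 with LPS and DSF. The log2 ratios with DSF had a middle range (quartiles) from -1.60 to -0.75 under LPS and those with ibrutinib from -0.35 to -0.23. Both inhibitors were set against the same stimulated library, so that any error of that library enters both.

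**Figure D5:**
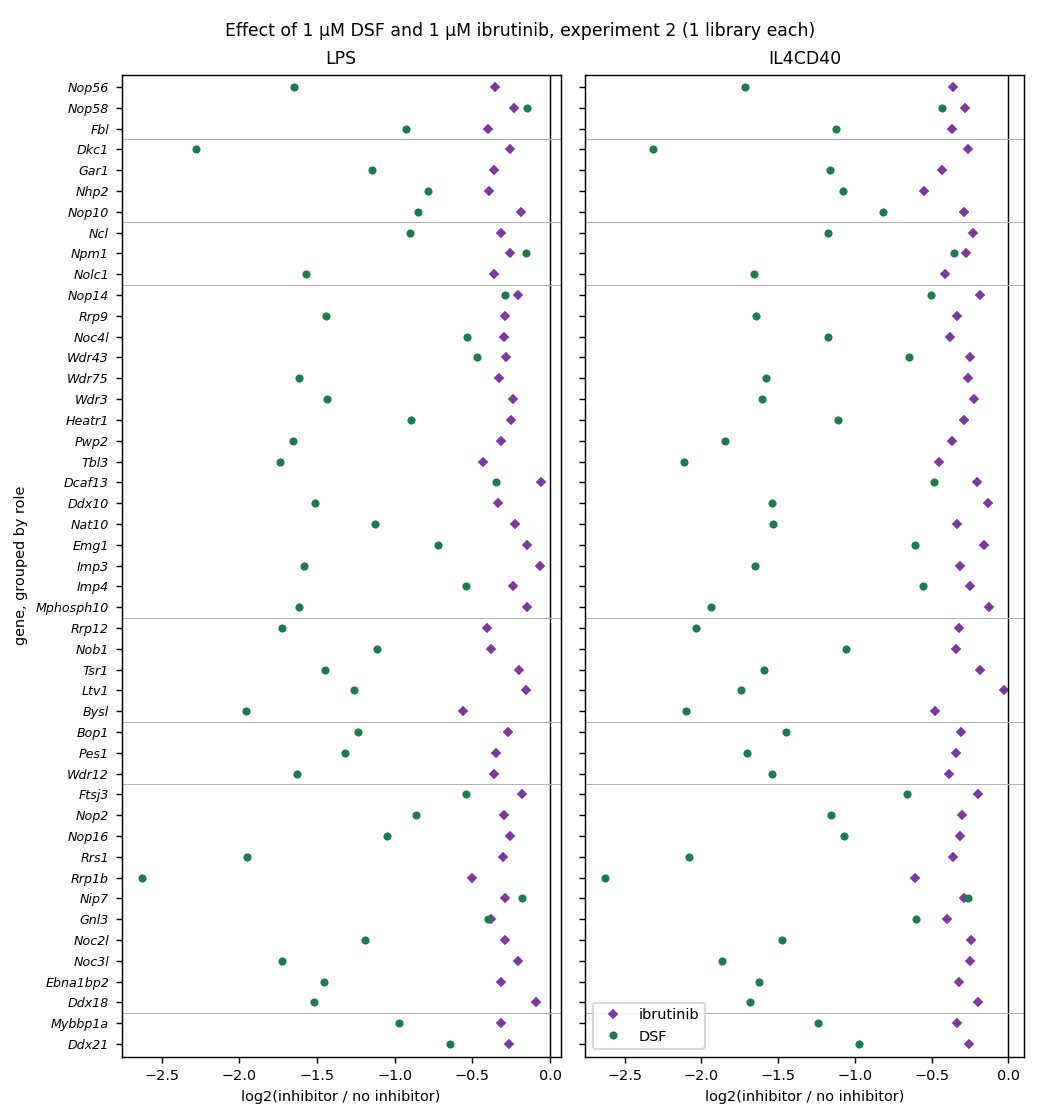
Log2 ratio of each of the 47 genes with inhibitor to the same stimulus without inhibitor in the second experiment (horizontal axis), for LPS (left) and IL4CD40 (right), with circles for DSF and diamonds for ibrutinib, 1 library each. Diamonds lie between -0.61 and -0.025 for every gene, while circles spread from -2.63 for Rrp1b to -0.15 for Nop58 under LPS.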

How the data were processed

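Messenger RNA of B cells was captured with poly-T beads and sequenced on an Illumina NovaSeq. Per the labels and the methods, the authors trimmed reads with Fastp, aligned them to the mouse genome mm10 with HISAT2 2.0.5 and counted them per gene with featureCounts 1.5.0-p3. The deposited counts are raw whole numbers per gene, and the deposited FPKM values are those counts scaled by the authors to gene length and depth. The annotation release and the strand setting are not given in the sources used here. The number of cells per well differs between the labels and the methods.

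Counts were tested with edgeR 4.0.16 in R 4.3.3: filterByExpr, TMM, a quasi-likelihood fit of the 8 libraries of each comparison (16 for the difference in DSF effect) and Benjamini-Hochberg adjustment over all tested genes at 0.05. SEs of log2 differences were taken from the F statistic. Shares of induction carry an SE by the delta method and no test. The second experiment was described by log2 ratios of TMM-scaled CPM with a prior count of 2, for genes whose mean count was 10 or more. FPKM served only to compare levels between genes and as an alternative for the shares. Alternatives were DESeq2 1.42.0, its size factors, total counts, other count filters, a single fit of 20 libraries, a replicate block and leaving out each library or, for NS and IL4CD40, each pair of libraries. For the single fit, the replicate block and the fits without libraries, shares of all genes called are not given here. Their counts therefore cannot be set against all genes.

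The fits were tested on simulated data: of 200 genes changed 2-fold, edgeR found 122 for LPS against NS, 172 for LPS_DSF against LPS and 144 for the difference in DSF effect, with 7, 13 and 12 false calls among 14230, 13951 and 14828 genes. DESeq2 found 146, 163 and 147, with 37, 7 and 17 false calls. The simulated libraries of a group were independent, without the pairs seen in NS and IL4CD40. These numbers therefore do not give the rate of false calls in comparisons with NS or IL4CD40. The members and gene lists were chosen with earlier results of these data known. Named genes were core members of each complex, the 3 largest and smallest changes and shares, members that were not called or went against the rest, the 5 lowest p-values between stimuli, extremes of each list, and Myc. Gene positions came from GENCODE vM21, which shared start and end with the files for 45 of the 47 genes, and promoters from RefSeq on GRCm38.p6, which had no window for 7. All sequence windows are described by their letters only.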

Additional observations from a re-analysis of the deposited data

Results flagged for a closer look

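Within groups of 4 libraries, 5 of 240 checks found a library far from the other 3 by Dixon's ratio of gap to range, where chance gives about 1 in 20. They were Noc3l (0.849), Noc4l (0.880) and Nhp2 (0.871) with LPS, and Bop1 (0.903) and Rrp1b (0.892) with IL4CD40 and DSF.

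For 16 genes the log2 change with DSF was lower under IL4CD40 than under LPS in edgeR's test of the difference itself. The differences were -0.35 for Nop58, -0.33 for Ncl, -0.32 for Noc4l, -0.32 for Mybbp1a, -0.31 for Rrp1b, -0.31 for Heatr1, -0.30 for Tsr1, -0.30 for Ddx21, -0.30 for Tbl3, -0.29 for Nat10, -0.28 for Ftsj3, -0.28 for Gnl3, -0.28 for Wdr43, -0.27 for Rrp9, -0.25 for Noc3l and -0.22 for Nop14. In a single fit of all 20 libraries none of the 47 genes passed in edgeR (1 at an unadjusted p under 0.05), and without IL4CD40 libraries 1 and 2 the change was lower for 8 genes and higher for Imp3.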

How the results depend on the processing

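The counts of genes higher with each stimulus, lower with DSF and above NS with DSF stayed within 1.5 times their values under every alternative that was run; leaving out 1 library gave 46 to 47 and 46 to 47 genes higher with LPS and IL4CD40, 36 to 38 and 41 to 44 lower with DSF, and 43 to 45 and 44 to 45 above NS. The genes differing between the stimuli went from 12 to 32 with total counts and 2 in a single fit of 20 libraries, and from 7 to 21 without 1 library, and were 33 without IL4CD40 libraries 3 and 4. Those with a different DSF effect went from 16 to 0 in the single fit and from 13 to 28 without 1 library, and were 9 without IL4CD40 libraries 1 and 2 and 41 without IL4CD40 libraries 3 and 4. The median share under LPS moved from 35.0% to 23.9% on the log2 scale and 58.2% with total counts, and ran from 33.3% to 36.2% without 1 library. Under IL4CD40 it moved from 45.1% to 32.4%, 61.8% and, in FPKM, 47.5%, ran from 42.9% to 47.2% without 1 library, and was 41.1% without NS libraries 1 and 2, 51.4% without NS libraries 3 and 4, 40.6% without IL4CD40 libraries 1 and 2 and 50.8% without IL4CD40 libraries 3 and 4. Leaving out a pair of libraries was chosen after seeing the data, and p-values of such fits leave out the spread between the pairs. The cause of these moves was not tested.

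Of the named differences, these turned sign. With total counts Imp3 under LPS was at -0.067, and with DSF under LPS Nop58 was at -0.12, Npm1 at -0.15, Nop16 at -0.17, Gnl3 at -0.20, Nob1 at -0.19 and Dcaf13 at -0.042, and Dcaf13 under IL4CD40 at -0.075. With every gene of any count Nop16 was at -0.021, Gnl3 at -0.049 and Nob1 at -0.042. In the single fit Gnl3 was at -0.0068 and, under IL4CD40, Nip7 at 0.037 and Nop10 at 0.0029. Without IL4CD40 libraries 1 and 2, Nip7 and Nop10 under IL4CD40 were at 0.12 and 0.13. With at least 10 counts in every library Nop10 under LPS was at 0.0020 and Nip7 under IL4CD40 at 0.0055. Without 1 library, the ranges under LPS were -0.031 to 0.094 for Nop16, -0.042 to 0.026 for Gnl3, -0.023 to 0.032 for Nob1 and -0.074 to 0.017 for Nop10, and those under IL4CD40 were -0.0796 to 0.050 for Nip7 and -0.14 to 0.0086 for Nop10.

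Correlations of deviations between same-numbered libraries ran from -0.11 to 0.38, and no pair of groups had all of them over 0.1. These values cannot tell whether same-numbered libraries shared a mouse or a preparation, and the main fits took the libraries as unpaired. With the replicate block the counts were 46 and 46 higher, 37 and 42 lower with DSF, 45 and 45 above NS, 12 between stimuli and 15 for the DSF effect. In the second experiment, with 1 library per condition, 24 and 30 genes were 2-fold lower with DSF when a mean of at least 50 counts was asked, and under LPS 1 gene was then at 0.0044 in place of below 0.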
